A study of Mus musculus with 6 samples.

Results

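Potassium channel genes and the related hyperpolarisation-activated HCN channel genes were taken as every symbol in the count tables that consists of Kcn, a subfamily letter or letters and a number, or of Hcn with a number from 1 to 4. This gave 96 of the 55341 symbols listed. Of these, 67 reached a CPM (counts scaled to the library total) of 1 in at least 3 of the 6 libraries and were tested, and 29 did not. Poly(A) RNA had been sequenced from cultures of cerebellar granule neurons (CGNs) of the mouse, 3 of them given DMSO, the vehicle, and 3 given GSK-126, which inhibits EZH2, the methyltransferase of H3K27.

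In the labels stood the agent, the replicate number and cerebellum as the tissue, and no strain, age, dose or day. By the study's methods, both groups came from CD1-IGS pups of about 1 week, whose granule neuron precursors were enriched on a Percoll gradient, plated and left to differentiate, and each replicate was made from pooled cerebella of litters. All cultures received the mitotic blocker AraC. In different experiments the study added the inhibitor on an earlier or a later day of culture, and the labels do not say which applies here. The comparison asks what the loss of EZH2 activity in these postmitotic neurons does to the RNA of their ion channels. Total counts over genes ran from 8058760 to 12047837 per library. The defining granule neuron genes were present in every library (Neurod1, a neuronal transcription factor, was at 350 to 837 CPM, and Zic1 at 1009 to 1720 CPM). Glial, mural and fibroblast genes were present as well (Gfap, the astrocyte filament, at 758 to 3184 CPM), so the values below are those of mixed cultures.

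Potassium channels let the membrane return to rest after each action potential and hold it there in between. Kv3 channels make repolarisation fast, Kv1, Kv4 and KCNQ channels set threshold and spacing of spikes, tandem pore (K2P) channels carry the leak current that is known for dominating the resting conductance of mature CGNs, and HCN channels carry a depolarising cation current at negative voltage. Many of these genes are switched on late, as CGNs mature. EZH2 places the repressive mark H3K27me3, which the study found in the cerebellum at gene bodies and intergenic regions as well as at promoters. Promoters that carry the mark in mammals are often rich in CpG.

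The promoters of the genes that fell are shown for their CpG content, as far as a reference sequence ending at or before the annotated gene start was at hand. H3K27me3 in these windows was not analysed. Of the 96 members, 69 had an entry in the RefSeq promoter set of GRCm38.p6. The following are the 250 bases before the RefSeq start of 4 genes that were lower with GSK-126, read 5′ to 3′ on the gene's strand, with each CpG in capitals. Kcnc1 is at chr7:46396218-46396467 on the plus strand and Kcnd2 at chr6:21215096-21215345 on the plus strand. Kcnk12 is at chr17:87797995-87798244 on the minus strand and Kcnk1 at chr8:125994852-125995101 on the plus strand.
Kcnc1: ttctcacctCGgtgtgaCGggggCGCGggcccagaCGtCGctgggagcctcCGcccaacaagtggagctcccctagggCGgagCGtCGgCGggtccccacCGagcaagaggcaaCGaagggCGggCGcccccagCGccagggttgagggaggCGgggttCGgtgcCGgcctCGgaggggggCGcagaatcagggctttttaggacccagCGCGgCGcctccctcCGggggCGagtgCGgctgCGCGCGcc
Kcnd2: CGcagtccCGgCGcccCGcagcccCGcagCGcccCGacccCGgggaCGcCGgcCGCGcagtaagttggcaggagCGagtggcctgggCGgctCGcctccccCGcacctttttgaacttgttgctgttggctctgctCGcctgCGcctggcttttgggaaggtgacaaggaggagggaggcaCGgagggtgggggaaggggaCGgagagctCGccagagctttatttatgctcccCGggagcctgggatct
Kcnk12: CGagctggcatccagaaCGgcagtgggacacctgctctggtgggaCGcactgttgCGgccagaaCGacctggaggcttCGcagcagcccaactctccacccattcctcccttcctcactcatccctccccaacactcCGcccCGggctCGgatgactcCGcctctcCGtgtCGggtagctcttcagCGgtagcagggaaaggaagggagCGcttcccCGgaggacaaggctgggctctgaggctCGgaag
Kcnk1: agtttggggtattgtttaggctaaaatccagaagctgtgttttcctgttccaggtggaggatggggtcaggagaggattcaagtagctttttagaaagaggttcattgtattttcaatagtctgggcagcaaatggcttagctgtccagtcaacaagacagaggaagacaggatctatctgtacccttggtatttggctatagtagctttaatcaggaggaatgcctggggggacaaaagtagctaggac

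These windows held 30 CpGs in Kcnc1, 22 in Kcnd2, 16 in Kcnk12 and 0 in Kcnk1, against a median of 6 over all 27025 promoters of the set. The GC content was 74.4%, 68.8%, 64.8% and 44.4% in the same order. The median was 8 CpGs over the 69 channel promoters, 11 over the 48 of tested genes and 5 over the 21 of genes that were not tested. Windows in these sets lie before the most upstream RefSeq start of each gene, whether or not they end before the annotated gene start. For some genes, Kcnab1 and Kcnip4 among them, the window lies far from the annotated start. On either strand, the letters CAGCAGG, a core bound by ZIC factors, were found in 12 of the 69 channel windows (17.4%) and in 8.33% of all windows. The median GC content was 58.8% over the channel windows and 52% over all windows, and the difference in this motif was not tested. The motif was in none of the windows of the 5 genes called lower that had an entry. So few windows cannot tell their share from that of the other channel genes.

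With GSK-126, 9 of the 67 tested channel genes were lower and 0 were higher at an adjusted p below 0.05 (edgeR quasi-likelihood test with the replicate number as a block, Benjamini-Hochberg over all 16685 genes tested). Among all genes tested, 1.38% were lower and 2.23% were higher, 3.61% in all. Among the 9 were the leak channel genes Kcnk1, Kcnk3 and Kcnk12, the Kv3 genes Kcnc1 and Kcnc4, and Kcna1, Kcnd2 and Kcnq3, of the Kv1, Kv4 and KCNQ subfamilies. The log2 fold changes of the 9 ran from −0.95 to −0.44. The fall cannot be told apart from a smaller share of neurons in the cultures, since fewer neurons and less RNA per neuron give the same counts in bulk RNA. At an unadjusted p below 0.05 the counts were 22 lower and 6 higher, against 7.31% and 9.15% of all genes.

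The calls rested on comparison within replicate number. Without the block no gene in the whole table passed the threshold, and 8 channel genes were lower and 2 higher at an unadjusted p below 0.05, against 2.58% and 3.39% of all genes. DESeq2 without the block called 0 channel genes, against 0.072% of all genes lower and 0.276% higher. In edgeR without the block the lowest adjusted p of a channel gene was 0.821, and for each of the 9 it lay between 0.821 and 0.845. Without replicate 2, in which most of the 9 genes stood highest in both groups, 5 of the channel genes were lower (Kcna1, Kcnc1, Kcnd2, Kcnk3 and Kcnq3), and with no filter on low counts 16 were. Whether replicates with the same number shared a litter or a day was not stated.

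**Figure D1:**
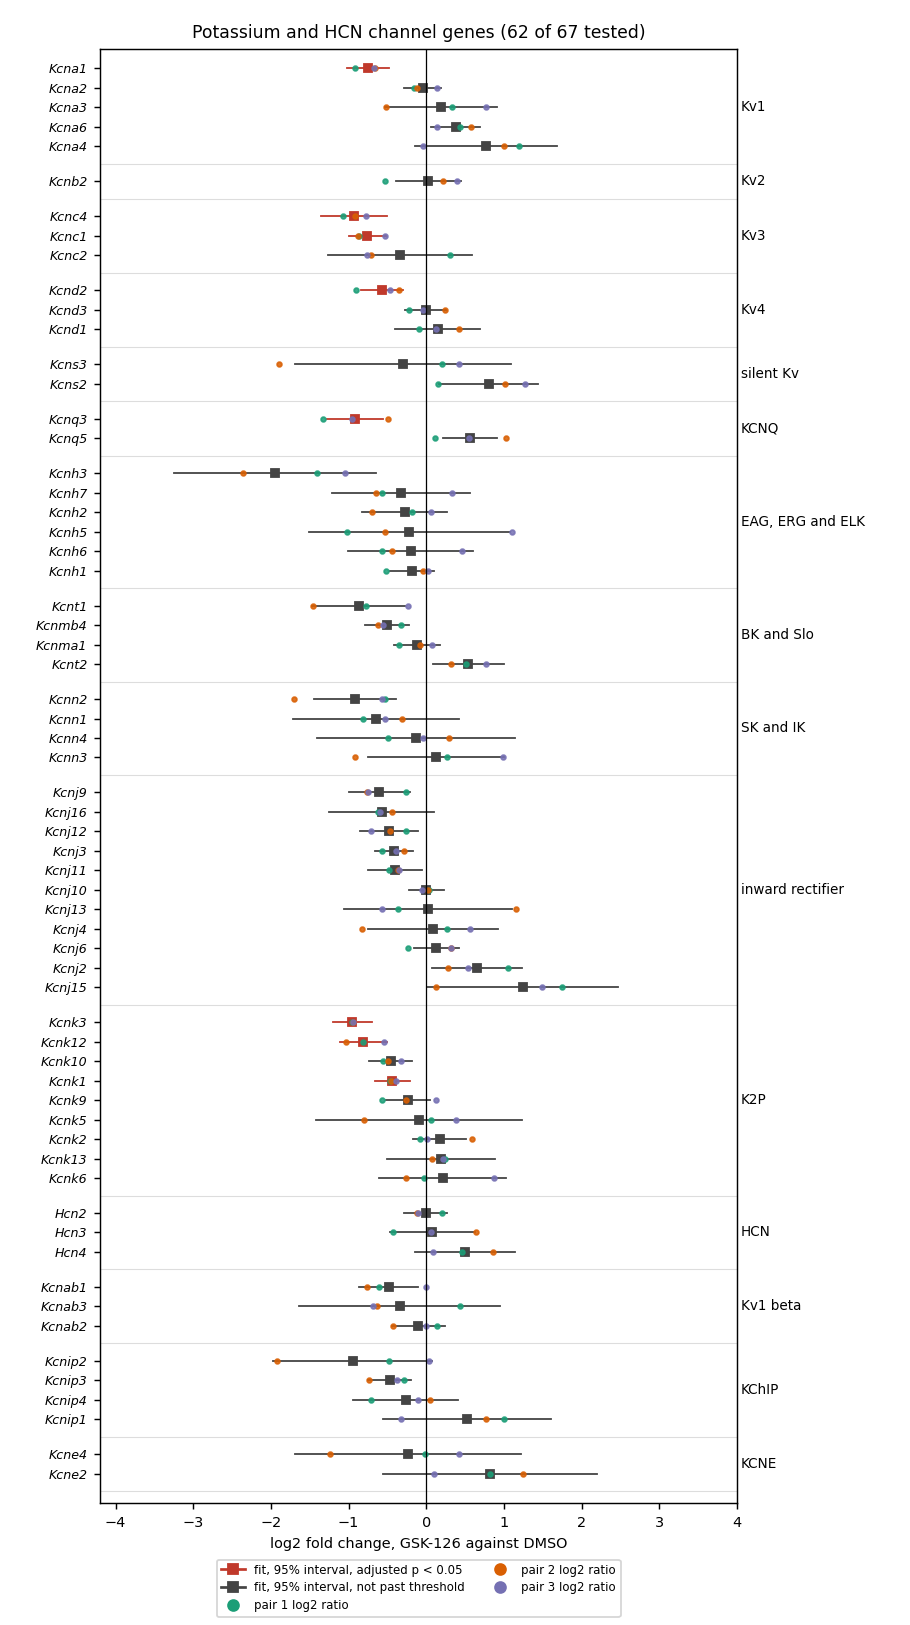
Log2 fold change of GSK-126 against DMSO (x axis) for 62 of the 67 channel genes tested, grouped by subfamily. Squares and lines give the edgeR estimate with its 95% interval, red where the adjusted p was below 0.05, and small points give the log2 ratio within each of the 3 pairs; 41 of the estimates drawn lie below 0 and 21 above.

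Of the markers of other cell types and of the neurons themselves, several moved with the agent. All 10 granule neuron markers passed the filter and 7 of them were lower, with a median log2 fold change of −0.58; their summed level was 4007 to 6191 CPM with DMSO and 2805 to 4414 CPM with GSK-126. Slc17a7, the vesicular glutamate transporter of mature granule neurons, changed by −2.16, Neurod1 by −0.57, and Rbfox3 (NeuN) by −0.59. Pax6, made by granule cells of every stage, was at 0.04 (adjusted p = 0.896) and Zic1 at −0.37 (adjusted p = 0.0515). Of 5 mural cell markers 4 were higher, from a sum of 477 to 788 CPM with DMSO to 866 to 1136 CPM with GSK-126. The sum of 4 fibroblast markers was 4468 to 5927 CPM and then 6414 to 6913 CPM, and 1 was higher. Astrocyte markers summed to 2143 to 6748 CPM with DMSO and 2214 to 6958 CPM with GSK-126, 1 of 7 higher. The GABAergic neuron markers summed to 196 to 263 CPM and 171 to 197 CPM, 1 of 7 lower. Oligodendrocyte markers were higher in 1 of 8, Cspg4, which the mural list holds too (430 to 654 CPM, then 494 to 781 CPM), endothelial markers in 1 of 3 tested (18.5 to 22.5 CPM, then 30.1 to 32.8 CPM), and microglial markers in 0 of 6 (170 to 270 CPM, then 193 to 428 CPM). Of the granule neuron precursor markers 0 of 3 tested were called (152 to 258 CPM, then 181 to 248 CPM), and Atoh1, which defines those cells, was at 0 to 0.71 CPM. Eomes, of unipolar brush cells, was lower (−1.12, adjusted p = 0.0315), and 0 of 2 choroid plexus markers tested were called (197 to 346 CPM, then 252 to 419 CPM). The part of these shifts in the channel values was not tested.

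Of 9 K2P leak channel genes tested, 3 were lower. Kcnk3 encodes TASK-1, an acid-sensitive leak channel, and lies at chr5:30588170-30625271 on the plus strand of GRCm38. It was at 64.4, 119 and 74.1 CPM in DMSO replicates 1, 2 and 3, and at 33.1, 62.0 and 38.3 CPM in the GSK-126 replicates of the same numbers. Every GSK-126 library was below every DMSO library. Its log2 fold change was −0.95 (SE 0.113, adjusted p = 0.00196), with −0.96, −0.94 and −0.95 in the 3 pairs, and leaving out any replicate left it between −0.95 and −0.94. The share of its exon bases that overlaps a gene on the other strand was 5.76%.

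Kcnk12 encodes THIK-2, a halothane-inhibited K2P subunit with little current of its own, at chr17:87745801-87797994 on the minus strand. Its level differed widely between replicates, with 24.7, 122 and 38.7 CPM under DMSO and 14, 59.5 and 26.5 CPM under GSK-126. Replicate 2 was the highest in both groups and the groups overlapped, but the GSK-126 library was below its DMSO partner in 3 of 3 pairs. The log2 fold change was −0.81 (SE 0.138, adjusted p = 0.0102) and the adjusted p was 0.125 without replicate 2. Slc17a7 was likewise highest in DMSO replicate 2, at 254 CPM against 53.8 and 59.2 CPM.

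Kcnk1 encodes TWIK-1, a weakly conducting K2P channel, and lies at chr8:125995170-126030685 on the plus strand. It was at 133, 199 and 133 CPM with DMSO and at 96.2, 145 and 101 CPM with GSK-126. The change was the smallest of the 9, a log2 fold change of −0.44 (SE 0.103, adjusted p = 0.0395), and was nearly equal in the 3 pairs (−0.47, −0.46 and −0.40). Its adjusted p was 0.177 without replicate 2 and 0.225 without replicate 3, and 8.01% of its exon bases overlap a gene on the other strand.

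Kcnk9, which encodes TASK-3, the main partner of TASK-1 in the standing outward current of CGNs, was not called. It was at 385, 645 and 378 CPM with DMSO and 258, 537 and 411 CPM with GSK-126, so that replicate 3 was higher with the inhibitor and the other two were lower. The fitted log2 fold change was −0.24 (95% interval −0.52 to 0.04, adjusted p = 0.396). Per kilobase of exon, Kcnk3 stood at 0.517, 0.571 and 0.607 of the level of Kcnk9 with DMSO and at 0.396, 0.357 and 0.288 with GSK-126. That ratio was lower in every GSK-126 library than in every DMSO library; its change was not tested. Among the other K2P genes tested, Kcnk10 (TREK-2) was at −0.46 with an adjusted p of 0.0749 and Kcnk2 (TREK-1) at 0.17 with an adjusted p of 0.655.

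**Figure D2:**
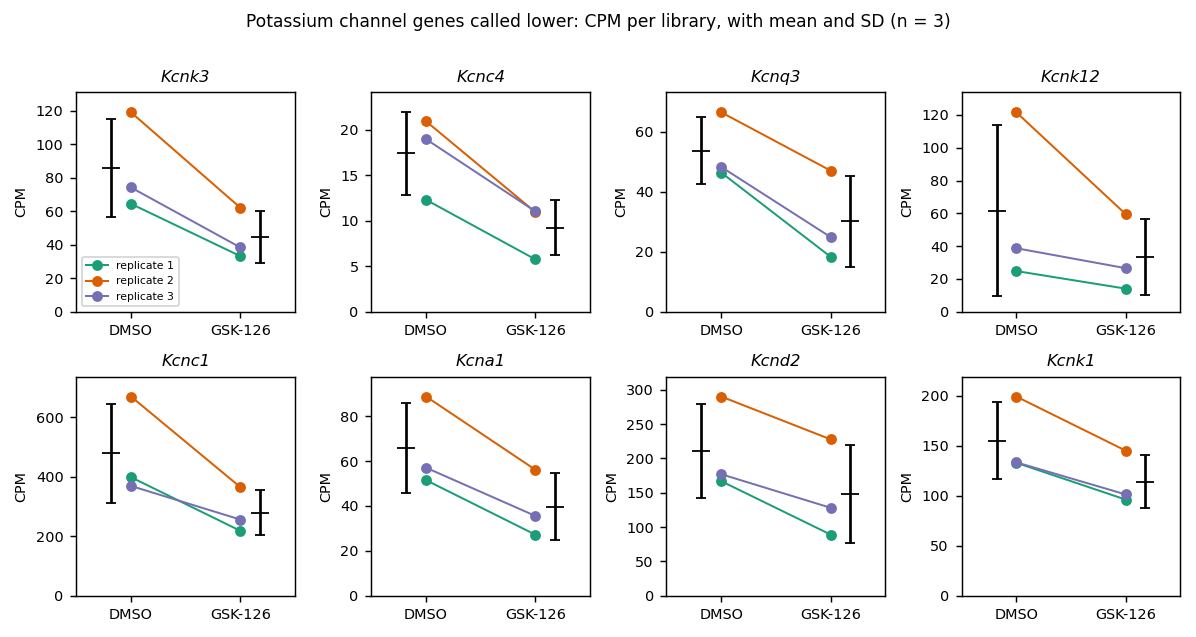
CPM per library (y axis, from 0) for 8 of the 9 channel genes called lower, with lines joining the DMSO and GSK-126 libraries of the same replicate number and bars giving the mean and SD of 3 libraries. Each of the 24 lines falls, and replicate 2 starts highest in all 8 panels.

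Of the Kv3 genes, Kcnc1 and Kcnc4 were lower. Kcnc1 encodes Kv3.1, which gives fast-spiking neurons their brief action potential, and lies at chr7:46396497-46438704 on the plus strand. It was the most abundant Kv gene by count, at 398, 669 and 369 CPM with DMSO and 218, 365 and 256 CPM with GSK-126. No GSK-126 library reached the lowest DMSO library. The log2 fold change was −0.76 (SE 0.109, adjusted p = 0.0046).

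Kcnc4 encodes Kv3.4, a fast-inactivating Kv3 channel, at chr3:107438303-107459552 on the minus strand. It had 12.3, 20.9 and 19 CPM with DMSO and 5.73, 10.9 and 11 CPM with GSK-126, without overlap between the groups. The log2 fold change was −0.94 (SE 0.194, adjusted p = 0.0235), and its adjusted p was 0.112 without replicate 2 and 0.0505 without replicate 3. Kcnc2 (Kv3.2) is best known from interneurons and was at 0.60 to 5.57 CPM over the 6 libraries, with a log2 fold change of −0.33 (adjusted p = 0.769).

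Among Kv1 and Kv4 genes, 1 of 5 and 1 of 3 tested were lower. Kcna1 encodes Kv1.1, the low-threshold channel of axons and terminals, and lies at chr6:126640397-126646384 on the minus strand. Its values were 51.5, 88.8 and 57.0 CPM with DMSO and 27.2, 56.1 and 35.5 CPM with GSK-126, where GSK-126 replicate 2 exceeded DMSO replicate 1. The fit gave a log2 fold change of −0.75 (SE 0.124, adjusted p = 0.00848). Kcna2 encodes Kv1.2, which assembles with Kv1.1, and stood at 149, 126 and 107 CPM with DMSO and 133, 117 and 118 CPM with GSK-126. The log2 fold change of Kcna2 was −0.05 (95% interval −0.29 to 0.19, adjusted p = 0.888).

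Kcnd2 encodes Kv4.2, which carries the somatodendritic A-type current, at chr6:21215503-21729805 on the plus strand. Its counts gave 167, 290 and 177 CPM with DMSO and 89.1, 228 and 128 CPM with GSK-126, with overlap between the groups and a fall in each pair. The log2 fold change was −0.57 (SE 0.124, adjusted p = 0.0282). Kcnd3 encodes Kv4.3, the related A-type subunit, and was at 91.7, 86.6 and 79.9 CPM with DMSO and 78.8, 102 and 77.2 CPM with GSK-126, with a log2 fold change of −0.01 (95% interval −0.27 to 0.25).

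Paralogs of both subfamilies were also set against each other. Per kilobase, Kcna1 stood at 0.863, 1.75 and 1.32 of the level of Kcna2 with DMSO and at 0.510, 1.20 and 0.749 with GSK-126. Kcnd2 stood at 3.39, 6.23 and 4.12 of the level of Kcnd3 with DMSO and at 2.10, 4.15 and 3.09 with GSK-126. Both ratios were lower with GSK-126 in 3 of 3 pairs while the groups overlapped, and neither change was tested.

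KCNQ genes encode the M-type channels, slow brakes on repeated firing that open near the resting potential. Kcnq3 (chr15:65986387-66286642, minus strand) was at 46.4, 66.6 and 48.3 CPM with DMSO and 18.3, 47.1 and 24.9 CPM with GSK-126. GSK-126 replicates 1 and 3 lay below every DMSO library, and GSK-126 replicate 2 lay above the lowest of them. This was a log2 fold change of −0.92 (SE 0.164, adjusted p = 0.0116), between −1.13 and −0.71 when each replicate was left out.

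Kcnq5, whose product assembles with that of Kcnq3, was at 59.0, 54.9 and 45.4 CPM with DMSO and at 63.7, 112 and 66.2 CPM with GSK-126. Its groups did not overlap and all 3 pairs pointed upward, yet it did not pass the threshold, with a log2 fold change of 0.56 (SE 0.159, adjusted p = 0.0837). Leaving out a replicate moved it to 0.79 without replicate 1 (adjusted p = 0.00808), 0.34 without replicate 2 (adjusted p = 0.365) and 0.57 without replicate 3 (adjusted p = 0.12). Per kilobase, Kcnq3 stood at 0.412, 0.634 and 0.557 of the level of Kcnq5 with DMSO, and at 0.150, 0.220 and 0.196 with GSK-126. On the log2 scale that ratio changed by −1.46, −1.53 and −1.50 in the 3 pairs, the widest separation among the 5 paralog pairs compared; the pairs were chosen with the values known and the ratios were not tested.

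**Figure D3:**
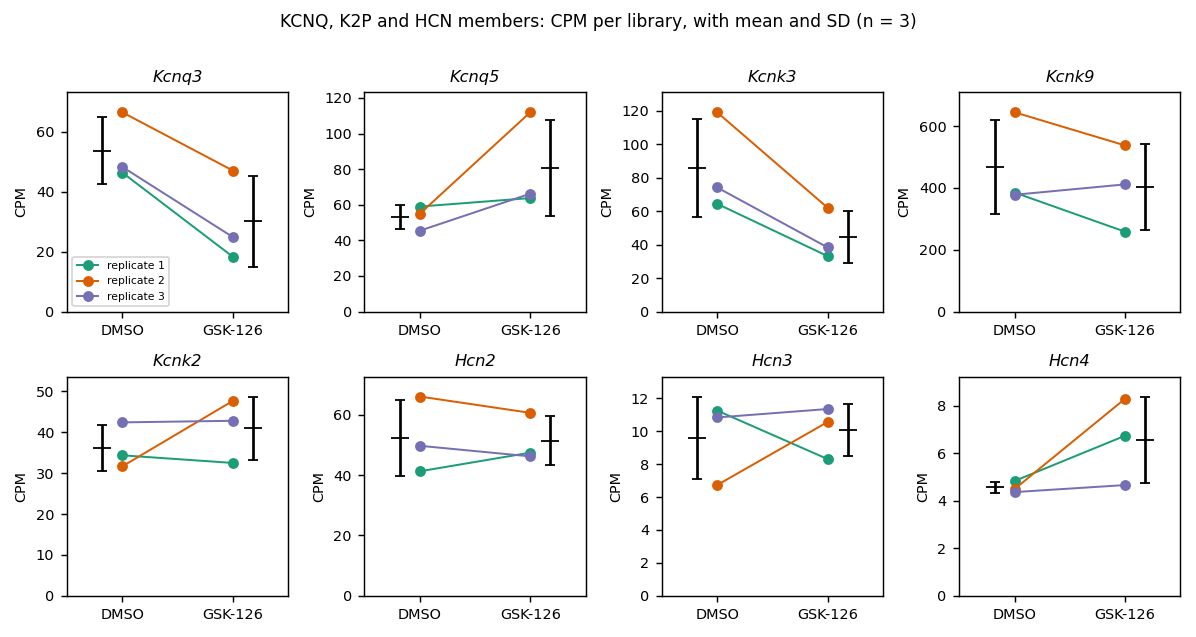
CPM per library (y axis, from 0, n = 3 a group, bars give mean and SD) for 2 KCNQ, 3 K2P and 3 HCN genes. Kcnq3 and Kcnk3 fall in every pair, Kcnq5 is higher in every pair without passing the threshold, and the DMSO and GSK-126 values of Hcn2 and Hcn3 overlap.

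No HCN gene was called, with a median log2 fold change of 0.16 over the 4. Hcn2 was at 41.3, 66.1 and 49.7 CPM with DMSO and 47.5, 60.7 and 46.2 CPM with GSK-126, with overlap between the groups. Its log2 fold change was −0.01 (95% interval −0.29 to 0.27), so a fall of the size of that of Kcnk3 lay outside the interval. Hcn3 was at 11.3, 6.73 and 10.8 CPM and then 8.31, 10.6 and 11.4 CPM (log2 fold change 0.08, adjusted p = 0.927), and 17.1% of its exon bases overlap a gene on the other strand. Hcn4, which was at 4.36 to 8.29 CPM, had a log2 fold change of 0.49 (adjusted p = 0.445). Per kilobase of exon, Hcn2 with DMSO stood at 16.4 ± 3.95 (SD, n = 3) CPM.

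The calcium- and sodium-activated channels gave no call. Kcnma1, the BK channel, was at 41.7, 55.5 and 38.8 CPM with DMSO and 32.6, 52.2 and 40.9 CPM with GSK-126 (log2 fold change −0.12, adjusted p = 0.724). Its neuronal beta subunit Kcnmb4 was at 36.0, 69.8 and 43.5 CPM and at 28.6, 45.3 and 29.5 CPM, a log2 fold change of −0.51 that missed the threshold (adjusted p = 0.0602). Of the Kcnmb4 exon bases, 31.5% overlap genes on the other strand. The sodium-activated pair had estimates on either side of 0, neither called, with Kcnt1 (Slack) at −0.87 (adjusted p = 0.123) and Kcnt2 (Slick) at 0.54 (adjusted p = 0.216), and the 2 groups were apart for each of them.

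Kcnn2, which encodes the small-conductance channel SK2 of the afterhyperpolarisation, was at 30.8, 21.7 and 11.5 CPM with DMSO and 21.2, 6.49 and 7.72 CPM with GSK-126. It fell short of the threshold with a log2 fold change of −0.92 (SE 0.241, adjusted p = 0.0618). With the replicate block its adjusted p was 0.031 in DESeq2 and 0.0786 in limma-voom. The estimate was −0.54 without replicate 2 (adjusted p = 0.295), −1.17 without replicate 1 (adjusted p = 0.0482) and −1.08 without replicate 3 (adjusted p = 0.00879). The EAG, ERG and ELK genes all had estimates below 0, none called. Kcnh1 (EAG1), the highest of them, was at −0.18 (adjusted p = 0.54). Kcnh3 (ELK2) had the lowest estimate of all 67 genes, −1.95 (SE 0.592, adjusted p = 0.11), on 0.805, 3.99 and 2.59 CPM with DMSO and 0.166, 0.601 and 1.14 CPM with GSK-126, so that few reads stood behind it.

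Inward rectifiers, which hold the membrane near the potassium equilibrium, were 11 tested genes with 0 calls and a median log2 fold change of −0.00. Their medians within pairs 1, 2 and 3 were −0.26, −0.29 and −0.35. Of the 11, 5 were lower in 3 of 3 pairs (45.5%, against 19.2% of all genes) and 2 were higher (18.2%, against 19.6%). Kcnj10 (Kir4.1), the potassium-buffering channel of glia, was at 157, 85 and 107 CPM with DMSO and 161, 86.2 and 103 CPM with GSK-126. The log2 fold change of Kcnj10 was −0.00 (95% interval −0.23 to 0.23), while its level followed replicate number, as did the summed astrocyte markers (6748, 2143 and 4008 CPM with DMSO, 6958, 2214 and 3551 CPM with GSK-126).

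None of the G protein-gated subunits was called, and differences between them were not tested. Kcnj3 (GIRK1) was at 92.3, 190 and 116 CPM with DMSO and 62.2, 155 and 88.6 CPM with GSK-126, lower in each pair, with a log2 fold change of −0.42 (SE 0.109) that did not pass (adjusted p = 0.0625). Of its exon bases 31.1% overlap a gene on the other strand. Kcnj6 (GIRK2), the gene mutated in the weaver mouse, whose granule neurons die, was at 77.8, 99.9 and 57.6 CPM and then 65.7, 124 and 71.9 CPM, a log2 fold change of 0.13 (adjusted p = 0.703). Kcnj9 (GIRK3) was at −0.61 (adjusted p = 0.102). Kcnj15 (Kir4.2) had the highest estimate of all 67 genes, 1.24 (SE 0.562, adjusted p = 0.298), on 0.589 to 2.83 CPM.

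Of the subunits that do not form a pore, 10 were tested and 0 were called, with a median log2 fold change of −0.31 and 8 of 10 estimates below 0. They comprise the Kv beta, KChIP, KCNE and BK beta genes. Kcnip3, the most abundant KChIP, a calcium sensor that assembles with Kv4 channels, was at 62.0, 106 and 62.7 CPM with DMSO and 50.9, 63.7 and 48.3 CPM with GSK-126. All 3 pairs were lower, with a log2 fold change of −0.47 (adjusted p = 0.0698). Kcnab2, the Kv1 beta subunit, was at −0.10 (adjusted p = 0.81). Kcnip4, known from CGNs, was at 3.08 to 5.54 CPM and −0.27 (adjusted p = 0.743), and Kcnip1 at 1.25 to 2.74 CPM and 0.52 (adjusted p = 0.671). Kcne2, a marker of choroid plexus, was at 0.125 to 2.41 CPM and 0.82 (adjusted p = 0.581). Of the electrically silent Kv subunits, which modify Kv2 channels, Kcns2 was at 7.82, 4.61 and 3.42 CPM and then 8.73, 9.49 and 8.52 CPM, a log2 fold change of 0.80 without a call (adjusted p = 0.187).

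Most of the calls lay among the abundant channel genes. By mean CPM per kilobase of exon with DMSO, the 10 highest included, in falling order, Kcnk1 (69.4 ± 17.1), Kcnc1 (50.6 ± 17.5), Kcnd2 (41.0 ± 13.3), Kcnk9 (38.1 ± 12.4), Kcnk12 (31.3 ± 26.6), Kcnj3 (25.5 ± 9.81), Kcnip3 (21.7 ± 7.19), Kcnk3 (21.6 ± 7.34) and Kcnj10 (21.5 ± 6.79), each SD over 3 libraries. Beyond the step from Kcnk1 to Kcnc1, neighbours among these differed by less than their SDs. Of the 10 highest genes 6 were lower with GSK-126, and of the 20 highest, 7 were. Of all genes tested 1.38% were lower, and of those with a mean of at least 30 CPM 2.47%. The order was set by the DMSO libraries alone, which also enter the fold change. Together the 96 genes took 0.293%, 0.419% and 0.275% of the counts in the DMSO libraries and 0.212%, 0.325% and 0.240% in the GSK-126 libraries, lower in each pair.

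Genes with a mean of at least 10 CPM over the 6 libraries numbered 35, of which 9 were lower, with a median log2 fold change of −0.44. Among all 11411 genes of that level 1.94% were lower and 3.12% higher, with a median of −0.01. The other 32 tested genes had 0 calls and a median of −0.04, but their median SE was 0.412, against 0.135 for the 35, so a change of the size seen in the 9 was mostly not detectable at their depth. Over the 67 genes the level with DMSO per kilobase and the log2 fold change gave Spearman's rho = −0.36, across genes measured in the same libraries. The DMSO values enter both quantities, which by itself pulls rho below 0, so rho does not show that level and change are linked.

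**Figure D4:**
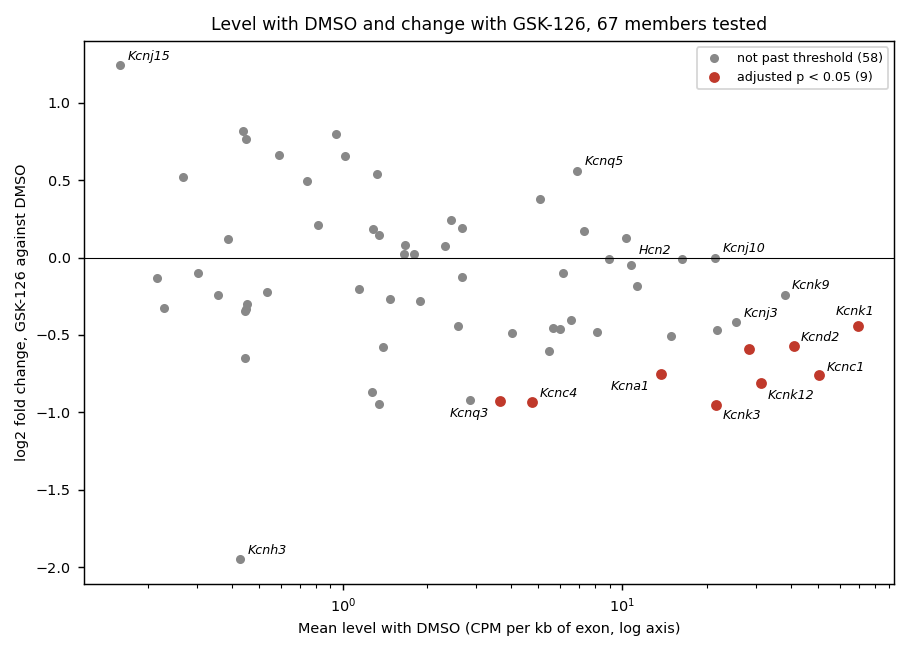
Mean level with DMSO in CPM per kilobase of exon (x axis, log scale) against the log2 fold change with GSK-126 (y axis) for the 67 channel genes tested, with the 9 called lower in red, most of them named. The red points lie at the right, from Kcnq3 at 3.66 to Kcnk1 at 69.4 CPM per kilobase, and the widest scatter lies at the left. The DMSO values enter both axes.

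Taking all 67 genes, the median log2 fold change was −0.22, and −0.28, −0.36 and −0.00 within pairs 1, 2 and 3, whereas it was −0.00 over all genes tested. Pair 3 therefore had channel genes about equally placed above and below 0, although the 9 called genes fell in it too. Of the 67, 24 were lower in 3 of 3 pairs (19.2% of all genes were) and 9 were higher in 3 of 3 pairs (19.6% of all genes were). In 4 genes every GSK-126 library lay below every DMSO library (Kcnc1, Kcnc4, Kcnk3 and Kcnt1) and in 5 every one lay above (Kcna6, Kcnj15, Kcnq5, Kcns2 and Kcnt2), which is 5.97% and 7.46% of the 67, near the 5.42% and 5.4% of all genes.

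The study sorted promoters by how H3K27me3 changes there as the cerebellum matures in vivo, in tissue and by chromatin data not analysed here, and these lists were read for the channel genes. Of 17 channel genes on the list of slow loss, 14 were tested and 5 were lower (Kcna1, Kcnc1, Kcnc4, Kcnk3 and Kcnk12), with a median log2 fold change of −0.76 and 13 of 14 estimates below 0. Over all 568 genes tested from that list, 28 were lower, 24 were higher and the median was 0.03. Of the 9 tested genes on it that were not called, the estimates ran from −1.95 for Kcnh3 to 0.49 for Hcn4, and took in Kcnn2 (−0.92), Kcnt1 (−0.87), Kcnip3 (−0.47), Kcnab3 (−0.34), Kcna2 (−0.05) and Hcn2 (−0.01).

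The list of fast loss held 8 channel genes, all tested, of which Kcna1, present on both lists, was lower, with a median of −0.25. Over the 519 genes tested from that list 52 were lower and 12 higher, with a median of −0.11. Of the 46 tested channel genes on neither list, 4 were lower, Kcnd2, Kcnk1 and Kcnq3 among them, with a median of −0.10. No channel gene was on the list of promoters that gain the mark in vivo. The list of promoters with less H3K27me3 under GSK-126 in culture held Kcng4, Kcnh5, Kcnip4 and Kcnmb1. Of these, Kcnh5 (−0.22) and Kcnip4 (−0.27) were tested and not called. None of the 9 genes called lower was on that list, over whose 379 tested genes 39 were higher and 3 lower. Kcnk4, which was not tested, was on the list of gain under GSK-126.

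**Figure D5:**
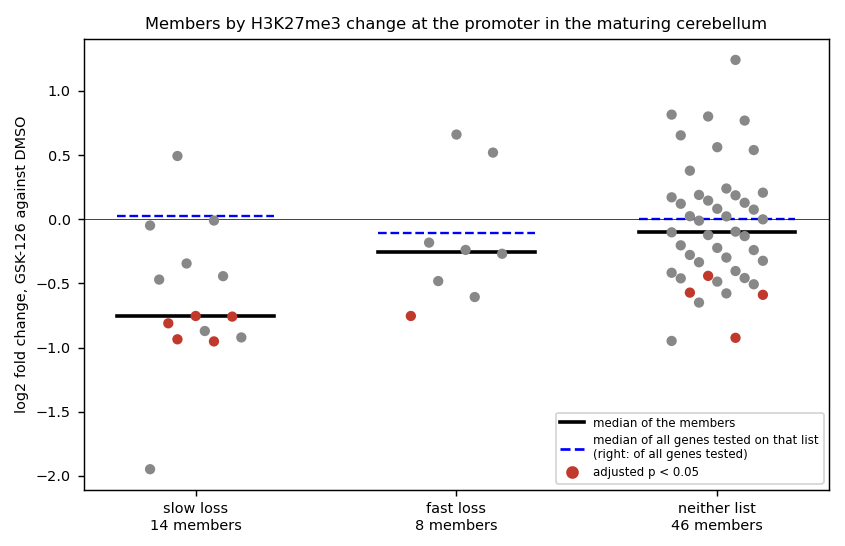
Log2 fold change with GSK-126 (y axis) of the tested channel genes on the study's in vivo lists of slow and fast H3K27me3 loss and on neither, red where the adjusted p was below 0.05; Kcna1 is drawn in both list columns. Solid lines give the median of the channel genes (−0.76, −0.25 and −0.10) and dashed lines that of all genes tested from the list or, at the right, of all genes.

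Genes whose products cluster, traffic or gate these channels were read from a list of 40, of which 30 were tested. Of these, 3 were lower and 0 higher, with a median log2 fold change of −0.26 and 25 of 30 estimates below 0. Of all genes tested 1.38% were lower, 2.23% were higher and 50.3% had estimates below 0. Without the replicate block 0 partners were lower. Ppp3ca, the catalytic subunit of the phosphatase calcineurin, which acts on Kv channels, was at 838, 990 and 772 CPM with DMSO and 461, 657 and 470 CPM with GSK-126, and changed by −0.72 (SE 0.101, adjusted p = 0.00408). Adam22 and Adam11, membrane proteins of the Kv1 complexes at axons and terminals, changed by −0.49 (adjusted p = 0.0288) and −0.61 (adjusted p = 0.0293). The Kv4 partners Dpp10 and Dpp6 were at −0.77 (adjusted p = 0.0664) and −0.30 (adjusted p = 0.174), and the Kv1-clustering gene Cntnap2 at −0.37 (adjusted p = 0.103). The scaffold Dlg4 (PSD-95) was at −0.26 (adjusted p = 0.25), and the HCN partner Pex5l (TRIP8b) at 0.25 (adjusted p = 0.772).

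The 29 channel genes that were not tested had at most 49 counts summed over the 6 libraries. In 6 of them no read was counted in any library (Kcna10, Kcne1, Kcnj1, Kcnk16, Kcnk18 and Kcnmb3), which allows up to 3 counts, or 0.249 to 0.372 CPM, in a library by counting error alone. The others were Kcna5, Kcna7, Kcne3, Kcnf1, Kcng1, Kcng2, Kcng3, Kcng4, Kcnh4, Kcnh8, Kcnj5, Kcnj8, Kcnj14, Kcnk4, Kcnk7, Kcnk15, Kcnmb1, Kcnmb2, Kcnq1, Kcns1, Kcnu1, Kcnv1 and Kcnv2. Among these are genes known chiefly from heart and vessel muscle (Kcna5, Kcnj5, Kcnj8, Kcnmb1, Kcnq1), inner ear or kidney (Kcne1, Kcnj1) and sperm (Kcnu1), and 8 of the 10 electrically silent Kv subunits.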

How the data were processed

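The authors deposited raw read counts for each gene symbol, 1 table a library, not normalized. By the study's methods and the submitters' processing notes, reads were trimmed with Trimmomatic 0.38, aligned to mouse GRCm38 with STAR 2.7.2b and counted over exons with HTSeq; the strand setting was not given in the sources used here, so a gene and an antisense partner cannot be told apart. The 5 summary categories that name no gene were left out. Reads assigned to genes made up 39.1% to 41.6% of fragments, and reads assigned to no feature 44.8% to 46.7%. With the strand setting unknown, the no-feature reads may include reads over exons of the other strand. Total counts ran from 8058760 to 12047837 per library and limit the precision of low genes. A count of 3 was the floor for a gene without reads.

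Genes with at least 1 CPM in at least 3 of the 6 libraries (16685) were fitted with edgeR 4.0.16 in R 4.3.3 (TMM factors, glmQLFit and glmQLFTest, replicate number as a block), with Benjamini-Hochberg adjustment over all of them and a threshold of 0.05. The fit was also run on counts simulated from its own model with the same replicate block. Such a run checks the code and cannot test the pairing. The rule for these genes set the pairing by replicate number. Deviations from the group means correlated at 0.34, 0.48 and 0.50 between DMSO and GSK-126 libraries of the same number. Between different numbers they correlated at −0.39 to −0.01. Once group means are removed, positive values within numbers force negative ones on balance, so the negative values are no separate evidence of pairing. The labels say nothing of a shared litter or day. The study defines a replicate as neurons of pooled litters. With the block, p-values set the difference between agents against its variation from replicate to replicate. That variation was estimated for each gene with information shared across all genes, so it is not the gene's own spread alone. The spread in level between replicates is removed from the p-values. Any 2 libraries differed by more than sampling noise (lowest chi-square per degree of freedom 9.98). Levels per kilobase used the union of exons in GENCODE M21, which also gave gene positions. Alternatives were DESeq2 1.42.0, limma 3.58.1 (voom), other factors and filters, no block, and each replicate left out.

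The members, the lists of partners and markers and the rules below were chosen with earlier results of these data known. Some members are counted in every total but are not reported here by name. Named with full values were other members past the threshold, the most abundant member of each subfamily per kilobase, and members long described in CGNs; Kcnh3, Kcnj10, Kcnj15, Kcnt1, Kcnt2 and a few others were added after their values were seen, as was the level of 10 CPM. The study's promoter lists were taken as lists of symbols from its complete tables; another list, held only in part, was not used here.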

Additional observations from a re-analysis of the deposited data

How the results depend on the processing

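The count of 9 channel genes lower with GSK-126 was 9 or 10 under DESeq2 with the block, limma-voom, DESeq2 size factors, robust edgeR and another expression filter. It was 16 with no filter, where 1 gene (Kcnq5) was higher in place of 0, and 5 to 13 with 1 replicate left out, where 0 to 1 were higher. Without the replicate block it was 0, and also 0 when any single library was left out; DESeq2 without the block called 12 genes lower and 46 higher in the whole table, none of them a channel gene. Over all genes the counts of 231 lower and 372 higher became 428 and 708 with no filter and 74 and 167 without replicate 2. With no filter the lowest adjusted p of the edgeR test over all genes was 2.31e-46, against 0.000201 in the main fit. For Kcnc1 the adjusted p went from 0.0046 to 6.9e-10 while the log2 fold change went from −0.76 to −0.75. Calls with no filter are therefore not like for like with the others.

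The 5 channel genes lower on the in vivo loss lists became 9 with no filter, 0 without the block and 3 to 8 with 1 replicate left out. The 3 partners became 7, 0 and 1 to 3. These last counts were added after seeing the data. The median over the 67 genes stayed between −0.35 and −0.11. With 1 replicate left out, the estimate changed sign in 18 of the 67 genes tested and in 0 of the 9 called. Of the 29 genes named by the rule, 4 changed sign: Hcn2 ranged from −0.11 to 0.065, Kcna2 from −0.14 to 0.012, Kcnab2 from −0.21 to 0.080 and Kcnd3 from −0.12 to 0.10. The cause of these changes was not tested; leaving out a replicate leaves 2 pairs. With 3 replicates a group no test of outlying libraries was made.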

Other observations

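Symbols near the channel names outside the naming rule were read as well. Kcnq1ot1, the long antisense RNA of the imprinted Kcnq1 domain, was at 36.1 ± 9.61 CPM with DMSO and 38.3 ± 16.1 CPM with GSK-126 (SD, n = 3 each), with a log2 fold change of 0.02 (adjusted p = 0.983), while Kcnq1 itself was below the filter. Kcne1l, an X-linked KCNE gene, was at 8.44 ± 3.66 and 6.74 ± 2.79 CPM, with a log2 fold change of −0.31 (adjusted p = 0.602). The antisense genes Kcnmb4os1 and Kcnmb4os2 had log2 fold changes of −0.33 (adjusted p = 0.535) and −0.42 (adjusted p = 0.296), and 43.1% and 34.2% of their exon bases overlap a gene on the other strand, so reads of Kcnmb4 cannot be separated from theirs. Kcnd3os was at 0.12 (adjusted p = 0.929). None of these was called. Kcnab3os and Kcnrg were below the filter.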
